A study of Homo sapiens with 8 samples.

Results

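RNA turnover was described in U-2OS cells that received a control siRNA, from the share of newly made RNA in the total RNA of each gene (the new-to-total ratio) after a labeling pulse of 60 min. Genes were included where each of the 3 siControl libraries held at least 100 reads, which left 8527 of the 18388 listed genes (46.4%). These genes held between 96.4% and 97.3% of the reads in each library. The genes FUT4 and GCC1 lay at the minimum of 100 reads, and PXMP4 and ALAD fell just short of it with 99.8 and 99.5 reads in their lowest library.

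U-2OS is a human osteosarcoma cell line, here the U-2OS Tet-ON line, which carries a tetracycline-regulated transactivator. All 3 libraries came from cells transfected with siControl at 50 nM for 72 h and given 75 µM of the uridine analog 4-thiouridine (4sU) for the final 60 min. A single siControl library with 0 µM 4sU gave the background. The titles of these libraries also carry the label DMSO, a solvent, with no dose or time given. The study itself compared these cells with cells depleted of CGGBP1, which is not done here. All libraries came from transfected cells, so the ratios describe control-transfected rather than untreated cells. The study counts its replicates as biological ones, but the labels do not say whether they came from separate cultures, and p-values measure only the spread between these libraries.

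The cell type was checked against marker genes. Of 9 osteoblast and mesenchymal markers, 7 were listed and 4 (SPARC, COL1A1, VIM and RUNX2) passed the read minimum, with a summed level of 38057 to 50625 reads per library. The mature osteoblast markers SP7, ALPL and BGLAP stayed under the minimum. Of 7 markers of epithelium, blood, liver, endothelium and neural crest, 4 were listed and none passed, with a summed level of 47.0 to 94.0 reads, and CDH1 and PECAM1 were at 0.

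In SLAM-Seq, 4sU is built into RNA made during the pulse, and alkylation with iodoacetamide makes reverse transcriptase read the labeled positions as C, so that new RNA carries T-to-C conversions. The share of new molecules rises with the rate at which an RNA is replaced, and an mRNA whose level is steady reaches a ratio of 50% when the pulse is as long as its half-life. Immediate-early transcription factors and feedback inhibitors of signaling are textbook examples of short-lived mRNAs, many with AU-rich elements in the 3′ UTR that are bound by decay factors of the ZFP36 family. The mRNAs of ribosomal proteins, glycolytic enzymes and the respiratory chain are textbook examples of long-lived ones.

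The median new-to-total ratio (posterior mean) was 4.48% in siControl 1 and 5.38% in siControl 2, but 1.10% in siControl 3. The most likely value that accompanies each posterior mean had medians of 3.85%, 4.88% and 0%, a mean of 2.91% ± 2.57 (SD, n = 3), and was exactly 0 for 20.1%, 19.1% and 53.5% of the genes. Replicate 3 thus stood apart at the level of the typical gene. It did not stand apart over all reads, where the ratio weighted by reads was 4.41%, 5.19% and 4.65%. In conversions pooled over the genes it was again the lowest, at 0.182 per 100 covered T against 0.228 and 0.238, a smaller gap than for the typical gene. The upper tail was also heavier in replicate 3, with 240 genes over 50% against 31 and 53 genes in replicates 1 and 2. Without 4sU the pooled rate was 0.0644 conversions per 100 covered T. Library totals were 10166234, 12093729 and 12008067 reads, and the median gene had 40 conversions in replicate 1, 49 in replicate 2 and 11 in replicate 3.

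**Figure D1:**
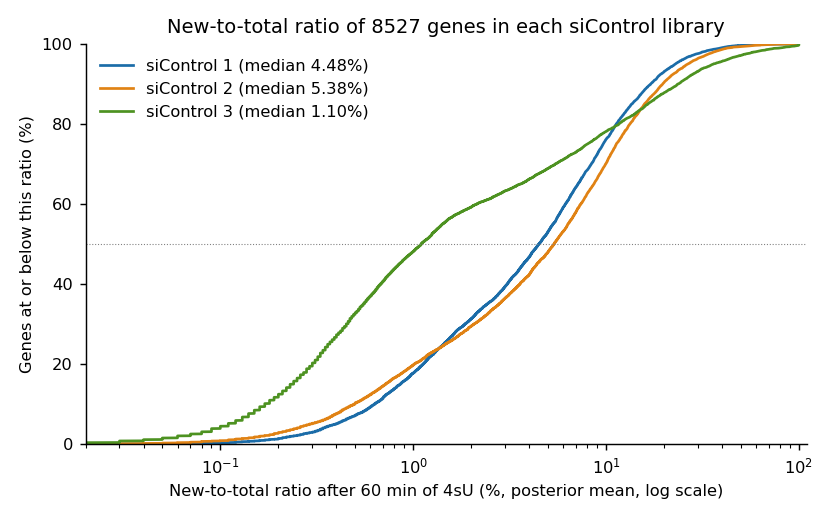
Cumulative share of the 8527 genes (vertical axis, %) by new-to-total ratio (horizontal axis, %, log scale), one line per siControl library, with the dotted line at the median gene. Replicates 1 and 2 run close together with medians of 4.48% and 5.38%, whereas replicate 3 has a median of 1.10% and a longer upper tail.

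To find genes that were replaced faster or slower than the typical mRNA, the conversions of each gene were compared with those expected from its covered T positions and the median rate of the library. At a Benjamini-Hochberg adjusted p under 0.05 and a rate more than 1.5 times the median (edgeR quasi-likelihood test), 1834 of 8526 tested genes (21.5%) were above the median. On the lower side, 77 genes (0.903%) passed the same test with a rate under the median divided by 1.5. Of the 1834 genes, 1206 (65.8%) exceeded the median in every library. The median that each gene was set against was 0.215, 0.226 and 0.0426 conversions per 100 covered T, so that replicate 3 contributed far larger folds than the others. In the fit with all 3 libraries, the median log2 difference from this reference over all genes was 0.46. The typical gene thus itself lay above the reference. With replicates 1 and 2 alone, 1432 genes (16.8%) were above and 254 (2.98%) below, and 822 of the 1834 genes (44.8%) were among those 1432. With the pooled rate of each library as the reference in place of the median gene, 812 genes (9.52%) were above it and 124 (1.45%) below. A stricter set of 330 genes (3.87%) was above the median with all 3 libraries and with each library left out in turn. It held 32 of the 49 genes named here that were above the median. This set made no use of the library without 4sU. EBP and MRPS12, whose rates without 4sU were over 0.5 times those with 4sU, were among the 32. For named genes outside the set, the call on IER2, KLF10, MCL1, EIF4A2 and RPS14 was lost when replicate 1 or replicate 2 was left out. The call on CDKN1A and ID3 was lost without replicate 2.

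Signaling inhibitors and immediate-early factors were among the genes with the highest ratios. The ratio of DUSP1, the phosphatase that switches off MAP kinases, was 87.0%, 82.5% and 100% in replicates 1, 2 and 3, the highest mean of all genes at 89.8% ± 9.09 (SD, n = 3). At steady state and with immediate labeling, the ratios in replicates 1 and 2 would correspond to half-lives of 20.4 and 23.9 min. The mean would give 18.2 min, but it includes the 100% of replicate 3, for which no half-life can be given. Its conversion rate was 5.32 log2 units above the library median (adjusted p = 2.92e-26), or 3.64 units without replicate 3. Its rate without 4sU was 0.0744 conversions per 100 covered T against 2.68 to 4.04 with 4sU. DUSP2, a related phosphatase, reached 67.9%, 96.8% and 81.2%. SOCS3, which blocks JAK-STAT signaling, had ratios of 63.1%, 70.0% and 76.2%. NFKBIA, the inhibitor of NF-κB, reached 66.8%, 67.1% and 55.9%, and NFKBIZ, an atypical IκB protein, 87.8%, 75.5% and 63.2%. The library with the highest ratio differed among these genes, and the lowest value was the 55.9% of NFKBIA in replicate 3.

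Among the transcription factors, the zinc-finger factor EGR1 had ratios of 59.6%, 73.4% and 56.0%, and the AP-1 subunits JUNB and JUN had 64.5%, 57.5% and 72.0% and 57.0%, 61.7% and 54.7%. HES1, the Notch-responsive repressor, was at 52.0%, 70.5% and 67.7%. For MYC, the growth-promoting factor, the ratio was 49.4%, 59.1% and 96.7%, and for KLF6 it was 48.1%, 62.6% and 100%. In both, replicate 3 was far above the other libraries, and the SD of 26.8 points for KLF6 was larger than that for JUN (3.58 points).

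The remaining genes with the highest ratios had other roles. CYR61 (CCN1), a matricellular protein and target of YAP, had the closest values of all 15, at 62.3%, 62.6% and 61.1% with 2387, 3522 and 2831 reads, which would correspond to a half-life of 43.0 min. CDKN1B, the cell cycle inhibitor p27, had 39.3%, 63.0% and 100%, and GADD45B, a stress-response factor, 68.5%, 75.9% and 52.1%. ZFP36L2, which itself binds AU-rich elements, was at 60.9%, 38.1% and 85.6%. ZCCHC3, a zinc-finger protein, was at 43.7%, 54.8% and 85.1%, but its rate without 4sU was 0.512 conversions per 100 covered T, and in replicate 3 it had 0 reads with at least 2 conversions. These 15 genes were chosen as those with the highest mean ratio among genes above the median in each library. All remained above it when any library was left out, which that choice made likely, so it is no independent check.

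**Figure D2:**
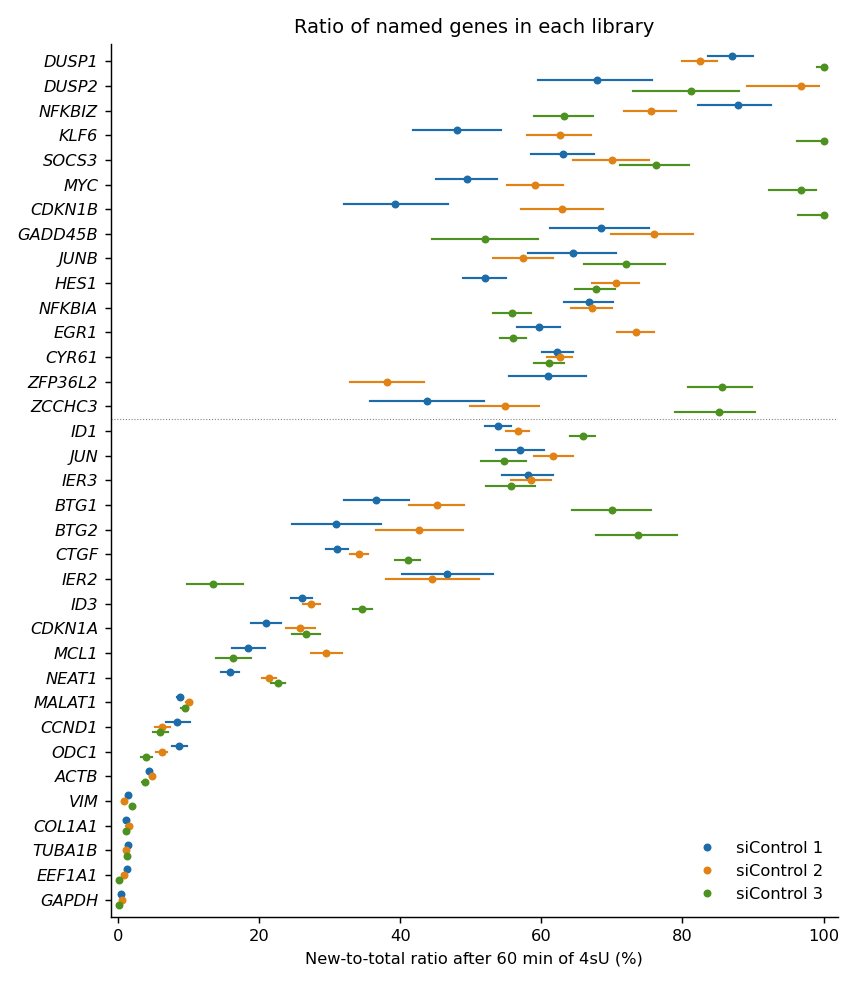
New-to-total ratio (horizontal axis, %) of the 15 genes with the highest ratios (above the dotted line) and of reference genes below it, with one colored point per siControl library at the posterior mean and bars from the 5% to the 95% quantile of the posterior. CYR61, JUN and IER3 sit close together in all 3 libraries, KLF6, CDKN1B and MYC reach 96.7% or more in replicate 3 only, and GAPDH and EEF1A1 lie under 1.3% in each library.

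Several of these mRNAs contain AU-rich heptamers (TATTTAT on the transcript strand) in the 3′ UTR, and the longer nonamer TTATTTATT, which contains the heptamer, occurs in DUSP1 and ZFP36L2. The heptamer was in 15 of the 26 named reference and top genes that were above the median and had an annotated 3′ UTR, and in 36.6% of the 8389 3′ UTRs among all included genes. The nonamer was in 2 of these 26 and in 9.43% of all 3′ UTRs. The 26 genes were picked by name or by ratio and not matched in 3′ UTR length, so setting these shares side by side is no test. In the highest quintile of all genes by ratio, 46.9% of 3′ UTRs held the heptamer. One site per gene is shown as DNA of the transcript strand, 5′ to 3′, with the motif in capitals and 8 bases on either side, since AU-rich elements are the known decay signals of this class of mRNA. The sequences and positions are from GENCODE 44 canonical transcripts on GRCh38, and each lies in the 3′ UTR.
DUSP1, chr5:172768645-172768669, minus strand: gctggtccTTATTTATTtaacttca
ZFP36L2, chr2:43223450-43223474, minus strand: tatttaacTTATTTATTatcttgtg
SOCS3, chr17:78356835-78356857, minus strand: tttgcacaTATTTATatttatat
NFKBIA, chr14:35401702-35401724, minus strand: acattttaTATTTATtgtgcttc
CYR61, chr1:85583562-85583584, plus strand: gaatgtttTATTTATcaaaatgt
JUN, chr1:58780822-58780844, minus strand: cttatgaaTATTTATaacagcat
IER3, chr6:30743656-30743678, minus strand: ctaattaaTATTTATatgtattt
CDKN1B, chr12:12721536-12721558, plus strand: ataattgcTATTTATttttacaa
The count per 3′ UTR was 3 heptamers in DUSP1 (666 bases) and ZFP36L2 (1917 bases), 4 in IER3 (737 bases), and 2 each in SOCS3, NFKBIA, CYR61 and CDKN1B. Among the fastest mRNAs without a heptamer were EGR1, HES1, JUNB, NFKBIZ and GADD45B, and the 3′ UTRs of HES1 and GADD45B held no ATTTA either. A match is a description of the sequence, not evidence of binding.

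Grouped by function, the immediate-early transcription factors had the highest ratios. Of 22 list members, 18 were above the median (background 21.5%) and none below, and 14 were above it in every fit with a library left out (background 3.87%). Their median ratio was 34.3% against 4.97% over all genes, with medians of 30.4%, 38.9% and 32.5% in the 3 libraries. IER3 was at 58.1%, 58.5% and 55.6%, while IER2 was at 46.7%, 44.6% and 13.5% and KLF10 at 46.6%, 42.3% and 1.49%, both with the low value in replicate 3. FOSL1, an AP-1 subunit, had 21.5%, 13.1% and 0.53% and did not pass the test (adjusted p = 0.337), but it was above the median with replicates 1 and 2 alone (log2 difference 1.68, adjusted p = 1.74e-05). The lowest of the list was SRF, the factor that drives many of the others, at 3.43%, 4.84% and 3.71%. FOS and ZFP36 did not reach the read minimum.

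Of 18 feedback inhibitors of signaling, 14 were above the median (background 21.5%), with a median ratio of 18.5%. In every fit, 7 remained above it (background 3.87%). Of 10 targets of BMP, TGF-β and Notch signaling, 9 were above (median ratio 28.1%), and 4 remained above in every fit. ID1, an inhibitor of helix-loop-helix factors and target of BMP, had 53.9%, 56.6% and 65.9% with 3374 to 4685 reads. ID3 of the same family was lower, at 26.0%, 27.4% and 34.7%. SKI, a corepressor of SMAD proteins, was the list member with the lowest mean ratio, at 0.86%, 5.63% and 15.1%. SMAD7 did not reach the read minimum. For the targets of YAP, 7 of 12 genes were above the median (median ratio 10.9%), and 3 remained above in every fit. CTGF (CCN2), the paralog of CYR61, had 31.0%, 34.2% and 41.1%. The receptor tyrosine kinase AXL had the lowest ratio of the list at 1.47%, 2.58% and 0.10%.

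Growth control genes spanned the whole range. Of 22 p53 targets, 8 (36.4%) were above the median against 21.5% of all genes, and 5 remained above it in every fit (background 3.87%), with list medians of 11.8%, 12.5% and 2.32% in the 3 libraries. CDKN1A, the p53-induced cell cycle inhibitor p21, had 21.0%, 25.9% and 26.6%, and BTG2, an antiproliferative deadenylation cofactor, 30.9%, 42.7% and 73.7%. MDM2, the ubiquitin ligase of p53, had 8.68%, 12.03% and 1.23% and was not called (adjusted p = 0.431). FDXR, a mitochondrial reductase, was at 0.29%, 0.27% and 0.43%. Among 29 cyclins, CDK inhibitors and E2F factors, 15 (51.7%) were above and 5 remained so in every fit. CDC25B, a mitotic phosphatase, had the lowest mean ratio of them at 2.06%, 0.14% and 0.16%. It did not pass the test (adjusted p = 0.356), and its most likely ratio was 0 in replicates 2 and 3. CCND1, the G1 cyclin, had 8.45%, 6.30% and 6.02% and did not pass the test (adjusted p = 0.136). MCL1, a short-lived antiapoptotic protein, had 18.5%, 29.6% and 16.3%, the highest of 12 BCL2 family members, of which 3 were above the median.

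Of 17 genes of the IRF2BP, BTG/TOB and CCR4-NOT group, 9 (52.9%) were above the median against 21.5% of all genes (median ratio 10.9%). In every fit, 2 remained so (background 3.87%). The group was led by BTG1 with 36.6%, 45.2% and 70.1%. Of 141 genes named ZNF, which encode zinc-finger proteins, 56 (39.7%) were above the median against 21.5% of all genes, and 27 were above it in every fit. Their median ratio was 12.7% and 14.0% in replicates 1 and 2 but 2.75% in replicate 3, and their median level of 311 reads was below the 553 reads of the typical gene. ZNF646 was the highest with 30.9%, 34.6% and 99.6%. Of 20 amino acid synthesis genes and targets of ATF4, 8 (40.0%) were above, and 4 remained so in every fit. They were led by DDIT4, an inhibitor of mTORC1, at 54.1%, 58.5% and 59.8%. PSAT1, a serine synthesis enzyme, was below the median at 0.37%, 0.41% and 0.58% (adjusted p = 0.0403). It had only 336, 286 and 212 reads with 4, 2 and 0 conversions, and its most likely ratio was 0 in each library. With replicates 1 and 2 alone it was not called (adjusted p = 0.217).

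Nuclear long non-coding RNAs were intermediate. NEAT1, the scaffold of paraspeckles, had 15.9%, 21.4% and 22.7%, and MALAT1, a speckle RNA, 8.74%, 10.1% and 9.48% with 26226 to 43405 reads. NEAT1 was 3.04 log2 units above the median (adjusted p = 2.85e-04). Without replicate 1 or 2 the difference was 3.46 or 3.41 but no longer passed the test, and without replicate 3 it passed at 1.64. MALAT1 did not pass with all 3 libraries (adjusted p = 0.140), but it was above the median with replicates 1 and 2 alone (adjusted p = 4.05e-29) and above the pooled rate with all 3, by 0.80 log2 units. The snoRNA host SNHG15 had 30.9%, 38.7% and 24.5%. Of the 9 list members 4 (EPB41L4A-AS1 and PVT1, named after their values were seen, and NEAT1 and SNHG15) were above the median. That is 44.4% against 21.5% of all genes, and 2 of the 9 remained above it in every fit. By annotated class, 91 long non-coding RNAs had a median ratio of 7.33%, and 8404 protein-coding genes one of 4.94%.

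**Figure D3:**
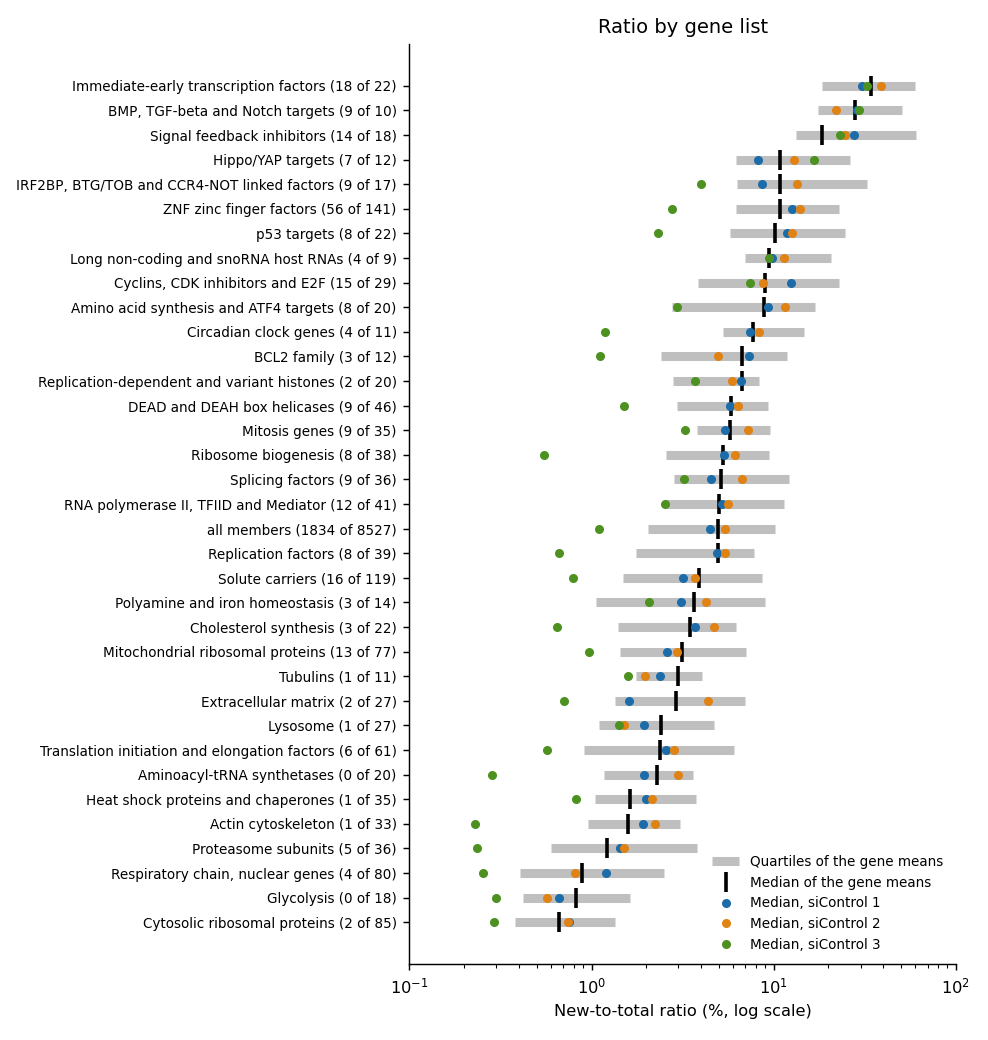
New-to-total ratio (horizontal axis, %, log scale) of each gene list, with the number of members above the library median and the number of members in brackets. Black ticks are the median and grey bars the quartiles of the gene means, and colored points are the list median in each siControl library. Immediate-early factors, at 34.3%, and ribosomal proteins, at 0.660%, form the ends, and replicate 3 is the lowest library in most lists but not for immediate-early factors, targets of BMP, TGF-β and Notch, or YAP targets.

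At the slow end were mRNAs of the translation machinery and of energy metabolism. The 85 cytosolic ribosomal protein genes had the lowest median ratio of all lists, 0.75%, 0.74% and 0.29% in the 3 libraries, at a median level of 16608 reads. By conversions they were not the lowest list. Their median rate was 0.0772 per 100 covered T, against 0.0719 for the respiratory chain and 0.0737 for glycolysis. RPS3 had the lowest ratio of the 85, at 0.12%, 0.02% and 0.02%. The call on the ribosomal protein list depended on replicate 3. With all 3 libraries, none of the 85 was below the median. With replicates 1 and 2 alone, 70 of 85 were below it (background 2.98%), and with the pooled rate as the reference, 50 of 85 were below it with all 3 libraries (background 1.45%). The rate in replicate 3 was close to that in the others for RPS3, at 0.0497, 0.0298 and 0.046 conversions per 100 covered T, whereas the median gene fell to 0.0426 there. The 2 genes above the median were RPS14 and RPL39L. RPL39L had 0.32%, 0.16% and 14.8%.

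The 18 glycolysis genes had a median ratio of 0.818%, and none was above the median (background 21.5%). GAPDH had 0.47%, 0.56% and 0.23% with 73252 to 129543 reads. With replicates 1 and 2 alone it was 1.49 log2 units below the median (adjusted p = 5.43e-19). With 3 libraries its log2 difference was -0.23 (adjusted p = 0.922). Of the 18 genes, 8 were below the median with replicates 1 and 2 alone (background 2.98%). The 80 nuclear genes of the respiratory chain had a median ratio of 0.890%. Of these, 4 (5.0%, background 21.5%) were above the median, namely ATP5S, NDUFS1 and the ATP synthase subunit copies ATP5EP2 and ATP5L2. All but ATP5S were named after their values were seen. With replicates 1 and 2 alone, 20 of the 80 were below the median (background 2.98%). UQCRQ, a complex III subunit, had 0.12%, 0.05% and 0.03%. Reads of genes with near-identical copies or pseudogenes, as for the ribosomal proteins, GAPDH and EEF1A1, can be split between the copies in counting.

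Other housekeeping groups lay between. The median ratio was 1.21% for 36 proteasome subunits, 1.63% for 35 chaperones, 1.58% for 33 actin cytoskeleton genes and 2.29% for 20 aminoacyl-tRNA synthetases, with 5, 1, 1 and 0 genes above the median. Of the proteasome subunits these were 13.9%, against 21.5% of all genes, and none remained above it in every fit. FLNA, an actin crosslinker, had the lowest mean ratio of all 8527 genes, at 0.05%, 0.03% and 0.04% with 4287 to 8706 reads. Its most likely ratio was 0 in each library, as for 611 genes, so this rank does not show the slowest turnover. By conversions FLNA was not the lowest, at a mean of 0.0202 per 100 covered T against 0.0113 for COL6A1 and 0.0139 for APRT. With all 3 libraries FLNA did not pass the test (adjusted p = 0.115). With replicates 1 and 2 alone it was below the median (adjusted p = 0.0089). EEF1A1, the elongation factor, had 1.25%, 0.84% and 0.18%, TUBA1B, an alpha-tubulin, 1.47%, 1.18% and 1.27%, and COL1A1, the type I collagen chain, 1.19%, 1.61% and 1.21%. ACTB, the cytoskeletal actin, was higher at 4.41%, 4.87% and 3.78%, and differed from the median in neither fit (adjusted p = 0.547 with all 3 libraries, 0.928 with replicates 1 and 2). Compared with cytosolic ribosomal proteins, the 77 mitochondrial ribosomal protein genes had a higher median ratio of 3.14%. Of these, 13 (16.9%) were above the median against 21.5% of all genes, 4 were without replicate 3, and 1 (MRPS12) was in every fit. The rate of MRPS12 without 4sU was 0.548 conversions per 100 covered T, against a mean of 0.648 with 4sU. Genes of splicing (36), RNA polymerase II and Mediator (41), ribosome biogenesis (38), replication (39) and mitosis (35) had medians between 4.94% and 5.74%, near that of all genes. EIF4A2, an RNA helicase of translation initiation, had 42.8%, 33.0% and 28.4%, the highest of 61 initiation and elongation factors, whose median was 2.37%.

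The 77 genes below the median with all 3 libraries were a different set from the 254 found with replicates 1 and 2, with 0 genes in common. They had a median of 248 reads, against 7636 reads for the 254. APRT, a purine salvage enzyme, was the only one of the 77 with at least 1000 reads in each library and a rate below each library's median, at 0.22%, 0.13% and 0.13% (log2 difference -3.53, adjusted p = 0.0483). It passed no fit with a library left out. COL6A1, a collagen VI chain (0.19%, 0.20% and 0.16%), and CTSA, a lysosomal protease (0.24%, 0.16% and 0.16%), behaved the same way.

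Against the single library without 4sU, 769 of 8509 genes (9.04%) had more conversions with 4sU, at a rate more than 1.5 times higher (edgeR, adjusted p under 0.05), and 9 (0.106%) had fewer. The test rests on 1 library, which is assumed to vary like the labeled ones. Among the immediate-early factors 17 of 22 passed. Part of the high rates was present without 4sU, and of the 1834 genes above the median, 263 (14.3%) had a rate without 4sU over 0.5 times their rate with 4sU. RPS14 was at 0.413, 0.453 and 0.443 conversions per 100 covered T with 4sU and at 0.542 without. POLE3, EBP, TUBG1, SCARB2 and MRPS12 were the others of this kind among the genes named by rule, and ATP5EP2 and TRIM26 among those named after their values were seen. EBP had only 4, 0 and 0 reads with at least 2 conversions in the 3 libraries beside ratios of 17.3%, 23.0% and 45.4%. BTG2, BTG1 and SNHG15, among others, stayed under 0.5 times but did not pass the test against that library. Their rates without 4sU were 0.638, 0.450 and 0.238, against means of 1.54, 1.72 and 0.944 with 4sU. In contrast, the rate of EGR1 was 0.0427 without 4sU against 1.98 and 2.42 in replicates 1 and 2. A much higher background was that of GREM1, a BMP antagonist (named after its values were seen), at 14.3 conversions per 100 covered T without 4sU, with ratios of 97.1%, 8.42% and 49.8%.

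Sequence features of the transcript, which the choice of genes did not use, varied with the ratio. In the lowest quintile of genes by ratio the median 3′ UTR was 658.5 bases long, in the fourth 1931 bases and in the highest 1687 bases. The heptamer TATTTAT was found in 17.8% of 3′ UTRs in the lowest quintile and in 46.9% in the highest, the nonamer TTATTTATT in 3.68% and 13.1%, and the Pumilio motif TGTANATA in 16.6% and 41.4%. Longer 3′ UTRs hold more matches of any kind, so the genes were also compared within classes of length. Among 3′ UTRs of 1000 to 2000 bases, the median ratio was 6.24% for 620 genes with the heptamer and 4.51% for 1243 without it, and among those of 2000 to 4000 bases it was 6.89% for 1054 genes and 5.35% for 913. For the Pumilio motif the corresponding medians were 6.47% and 4.74% in the shorter and 6.99% and 5.56% in the longer class, but 6.69% and 6.56% in 3′ UTRs over 4000 bases. The G+C content of the 3′ UTR fell from 47.9% in the lowest to 39.1% in the highest quintile.

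These differences were smaller in replicate 3. Ranked by replicate 1 alone, 22.5% of 3′ UTRs in the lowest and 48.8% in the highest quintile held the heptamer. For replicate 2 the shares were 21.6% and 48.5%, and for replicate 3 they were 29.2% and 44.4%. Correlations across genes were weak. Across 8511 genes, Spearman's rho with the ratio was 0.15 for the genomic span, 0.26 for the mRNA length and -0.03 for the number of exons. It was 0.25 for the 3′ UTR length and -0.22 for its G+C content over 8389 genes, and -0.24 for the read count over 8527. Genes share libraries and depth and are not independent replicates, so these are descriptions. Across quintiles of genomic span the median ratio rose from 3.53% to 6.31%, and the share above the median from 20.6% to 24.3%.

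**Figure D4:**
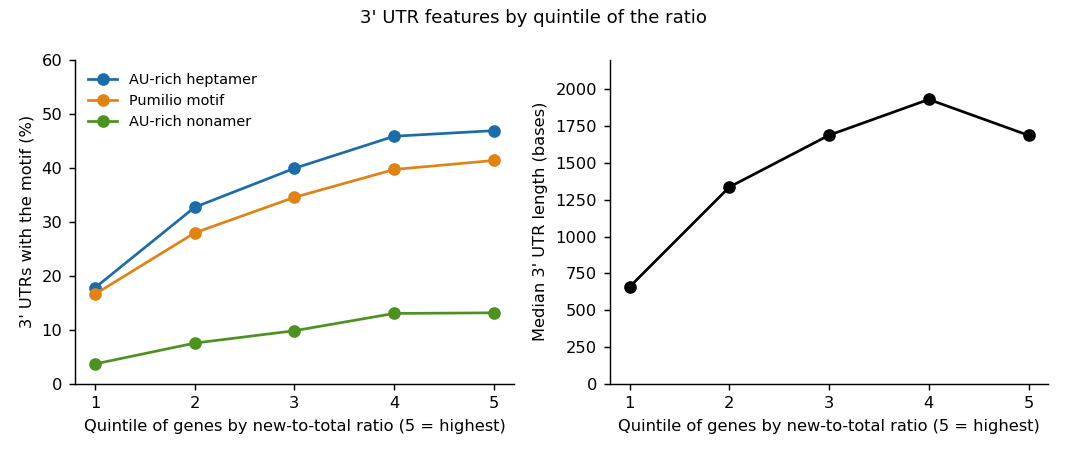
Left, share of 3′ UTRs (%) with the AU-rich heptamer TATTTAT, the Pumilio motif TGTANATA and the AU-rich nonamer TTATTTATT in quintiles of genes by new-to-total ratio. Right, median 3′ UTR length (bases) in the same quintiles, which rises from 658.5 to 1931 bases in the fourth and is 1687 bases in the highest.

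The replicates ordered the genes alike only in part. Across all genes, Spearman's rho of the ratio was 0.57 between replicates 1 and 2, 0.37 between 1 and 3 and 0.38 between 2 and 3. Among 650 genes with a mean of at least 3000 reads it rose to 0.82, 0.64 and 0.68, and among 769 genes with 100 to 200 reads it fell to 0.38, 0.15 and 0.06. The spread between libraries exceeded the uncertainty given with each ratio. The intervals from the 5% to the 95% quantile did not overlap between replicates 1 and 2 for 43.4% of genes, and for 51.7% of those with at least 3000 reads, where the intervals were narrow (median width 0.960 points in replicate 1). Between replicates 1 and 3 they did not overlap for 59.3% of genes. For 2587 genes (30.3%) the most likely ratio was 0 in replicate 3 only, and for 611 (7.17%) it was 0 in all libraries. A ratio over 50% was found in all 3 libraries for 15 genes, over 20% for 159 and over 10% for 581, whereas 278, 1716 and 3805 genes passed these levels in at least 1 library.

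**Figure D5:**
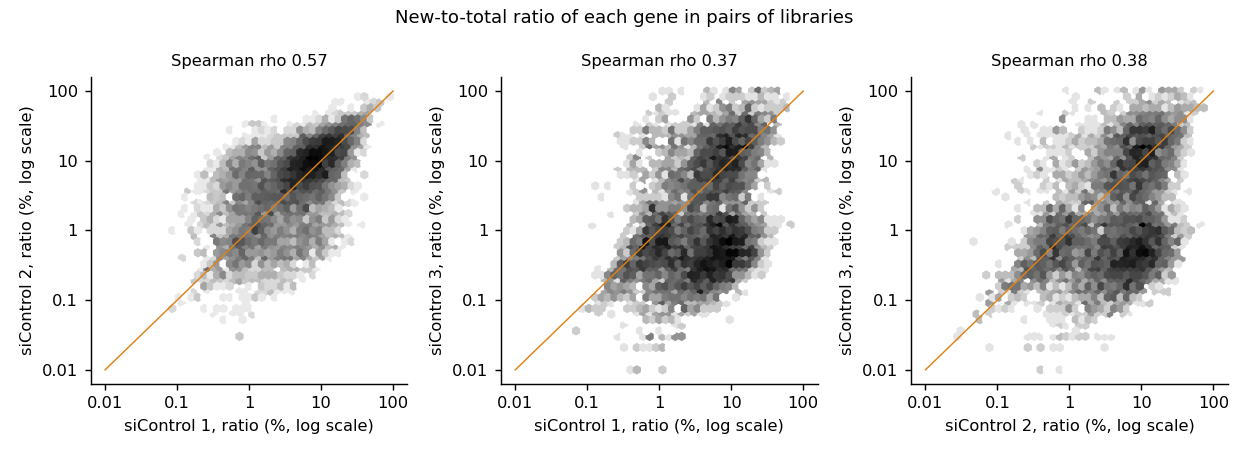
New-to-total ratio of each gene (%, log scales on both axes) in each pair of siControl libraries, with darker cells for more genes (log color scale) and the line of equality. Replicates 1 and 2 form a single cloud along the line, while in both panels with replicate 3 the genes between about 1% and 20% in the other library split into a group near the line and a group under 2% in replicate 3.

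Among genes with at least 500 reads in each library, those with the largest disagreements, listed here because of their values, were high in replicate 3. TAF13, a TFIID subunit, had 5.22%, 6.18% and 79.1% with 506, 593 and 814 reads, and 51, 52 and 522 conversions. BTF3L4 had 4.63%, 7.78% and 61.4% with 640 to 749 reads, and PPP1R13L, an inhibitor of p53, 1.65%, 0.84% and 48.2%. In these 3 genes the rate without 4sU was at most 0.0145 conversions per 100 covered T, and replicate 3 held 62, 230 and 218 reads with at least 2 conversions. TRIM26, with 1.38%, 11.4% and 73.6%, had a rate of 1.16 without 4sU.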

How the data were processed

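The genes, gene lists and tests were chosen with earlier results of these data known. As deposited by the authors, the values are expected counts per gene and library for reads, T-to-C conversions, covered T and min2, taken to mean reads that carry 2 or more conversions. They were made with Bowtie2 2.3.0 (removal of ribosomal reads), STAR 2.5.3a, GRCh38, Ensembl 90 and GRAND-SLAM 2.0.7 from 3′ libraries (QuantSeq), with no named removal of PCR duplicates, so reads are not independent molecules. The new-to-total ratio was deposited by the authors as a fraction, and its posterior mean was used unless stated. Spike-in RNA was not used here.

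Conversions were rounded and fitted in edgeR 4.0.16 (R 4.3.3) without covariates, with covered T times the median rate of the library as the offset. Since glmQLFTest needs 2 coefficients, the same F statistic was computed against the offset. The 1 gene without covered T in a library was not tested, and 17 genes without covered T at 0 µM were left out of that comparison. On simulated conversions of 8509 genes, the test against the median recovered 74.0% of 8-fold and 100% of 16-fold increases but 6.00% of decreases to 0.0625. The test against 0 µM recovered 28.0% of 64-fold increases. Conversions were drawn with the spread that edgeR had fitted, and unchanged genes were all set at a reference rate, which is simpler than the real data.

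Named genes were the 15 with the highest mean ratio among those above the median in each library, up to 10 with the lowest among those below it with at least 1000 reads (1 passed), 35 reference genes (32 passed the read minimum), and the highest and lowest member of each of 34 lists, except 1 gene that is not reported here. A list of mitochondrial genome mRNAs had no listed gene, and lists not described are in the plot by list. Canonical transcripts of GENCODE 44 matched 8511 genes by identifier. Alternatives were DESeq2 1.42.0, limma 3.58.1, other references, filters and readouts, and each library left out.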

Additional observations from a re-analysis of the deposited data

Results flagged for a closer look

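The libraries that entered no comparison also carried conversions above the level without 4sU. Over the 8527 genes, the single siControl library with 200 µM 4sU had 0.215 conversions per 100 covered T, and the siCGGBP1 replicates 1 to 3 had 0.256, 0.219 and 0.239, against 0.0644 in the library without 4sU. No test was made on these values, and each group of 1 or 3 libraries is too small for a check of outliers. The median gene was at 0.0548 conversions per 100 covered T in the 200 µM library and at 0.218, 0.192 and 0.0308 in the siCGGBP1 libraries, so a low median beside a usual pooled rate was also seen there, in the 200 µM library and in replicate 3.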

How the results depend on the processing

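With each library left out in turn, between 843 and 1432 genes were above the median, between 0 and 254 below it, and between 230 and 4051 above the library without 4sU. In each case the highest count came from leaving out replicate 3. In place of 1834 genes above the median, 55 were called by limma on conversions, 590 by limma on the ratio, 812 with the pooled rate as reference, 464 from reads with at least 2 conversions and 708 with at least 500 reads. In place of 77 genes below it, 48 were called by DESeq2, 124 with the pooled rate, 0 by limma on the ratio, 4 from reads with at least 2 conversions and 41 with at least 50 reads. Without adjustment, 2363 genes were higher and 300 lower at a p under 0.05. The limma test recovered 48.0% of simulated 32-fold increases and edgeR 100%. The simulation used the spread that edgeR had fitted, with unchanged genes all at the median rate, so it cannot rank these tests on the real data. DESeq2 called 2286 genes above the library without 4sU in place of 769. The fit of reads with at least 2 conversions, which gave 464 and 4 genes, took the pooled share of such reads in each library as the reference. Readout and reference thus changed together. In that fit, the log2 difference turned negative for POLE3 (-0.16), EBP (-3.53), TUBG1 (-3.41), RPS14 (-1.94), MRPS12 (-0.42) and PSMB10 (-0.27). The cause was not tested. Of the 49 named genes above the median, 32 remained so with any library left out. MAD2L1 and HIST2H2BE were lost only without replicate 3, with log2 differences of 0.56 and 1.30, and CDKN1A, ID3 and SRSF10 only without replicate 2, at 3.42, 3.79 and 3.39. A limit to genes whose rate without 4sU was at most 0.5 times that with 4sU, added after seeing the data, left 1571 genes above the median. The mean of the library medians of the most likely ratio, 2.91%, was between 1.93% and 4.37% with a library left out, and highest without replicate 3. No paired analysis was possible because a single group was described.

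Calls at the slow end changed with replicate 3 and with the reference. A ratio of 0 in a gene with few conversions does not show absence of new RNA, and half-lives of genes with low ratios are not reported. Ratios mix RNA synthesis, decay and label uptake, which cannot be told apart from 1 pulse length.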
